A study of Mus musculus with 8 samples.

Results

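De novo lipogenesis is the synthesis of fatty acids from carbohydrate, and 10 genes of that pathway were followed in subcutaneous fat: Fasn, Acly, Scd1, Scd2, Elovl6, Me1, Srebf1, Mlxipl, Thrsp and Slc25a1. All probe sets whose platform annotation names exactly 1 gene, that gene being one of the 10, were taken, which gave 23 of the 45101 probe sets of the array. A probe set is a group of short oligonucleotides that reads 1 stretch of a transcript, and a gene can have several. After dim probe sets were set aside (mean signal under 275 over all mice), 18 of the 23 entered the statistical fit, and each of the 10 genes kept at least 1. The other 5 had group means between 65.3 and 233 and are described as values only.

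The fat came from male mice, called diabetic in the title of the series, and no strain or model of diabetes was stated in the labels used. The 4 NBC mice (numbers 5, 9, 11 and 13) received niacin-bound chromium, a chromium compound of nicotinic acid, by oral gavage at 10 mg per kg body weight, 5 days a week for 10 weeks. The 4 placebo mice (numbers 6, 8, 10 and 14) received the same volume of water on the same schedule. The labels give an age of 8 weeks for both groups, which cannot be the age at the end of 10 weeks of treatment. Each mouse had 1 Affymetrix array, read as a MAS5 signal, a brightness on a linear scale. Whole tissue was used, so a lower signal can come from fewer cells of a type or from less transcript per cell, which cannot be told apart.

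In this pathway citrate leaves the mitochondrion through the carrier encoded by Slc25a1 and is split to acetyl-CoA by ATP citrate lyase (Acly). Fatty acid synthase (Fasn) builds palmitate from it with NADPH that malic enzyme (Me1) helps to supply. Elovl6 lengthens the product, and the stearoyl-CoA desaturases Scd1 and Scd2 place a double bond in it. The transcription factors SREBP-1 (Srebf1) and ChREBP (Mlxipl) respond to insulin and sugar and switch on these genes, and Thrsp (Spot14) is a lipogenic protein that is abundant in fat and liver.

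None of the 18 probe sets differed between NBC and placebo mice at an adjusted p under 0.05 (limma, Benjamini-Hochberg over the 22519 probe sets fitted). The smallest adjusted p among them was 0.778. Over the whole array 0% of the probe sets passed, the smallest adjusted p was 0.653, and 1400 had an unadjusted p under 0.05. Of the 18, 0 had such an unadjusted p in either direction, where 2.94% of all probe sets did with a lower level in NBC mice and 3.28% with a higher one. The groups overlapped in all 18, while in 2.06% of all probe sets every NBC mouse lay below every placebo mouse and in 1.79% every one lay above. With each gene represented by its brightest probe set, 6 of the 10 genes had a log2 difference (NBC minus placebo) below 0, against 51.5% of all 11662 genes. The median log2 difference was -0.08 over the 10 genes and -0.01 over all genes.

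A few measurements on all arrays bear on what follows. The ratio of the 3′ to the 5′ control probe set of Gapdh, a sign of RNA integrity, was 1.47, 0.844, 1.28 and 1.11 in NBC mice 5, 9, 11 and 13, and the placebo mice lay between 0.924 and 1.04. The summed signal of 9 markers of fast skeletal muscle was 148621, 16440, 156826 and 139840 in the same NBC mice and 4220 to 21592 in placebo mice, so NBC mouse 9 was the lowest of its group in both. The same ratio for actin was 2.10, 1.51, 1.82 and 1.56 in those NBC mice and 1.51 to 1.74 in placebo mice, and there NBC mice 9 and 13 lay close together. The 6 adipocyte markers measured (Adipoq, Fabp4, Cidec, Lipe, Pnpla2 and Retn) had a summed signal of 400197 to 444549 in NBC and 397672 to 485857 in placebo mice, and all 6 log2 differences lay below 0. Liver, another lipogenic tissue, was represented by albumin (Alb), with 1656 to 1871 in NBC mice and 2710 to 6572 in placebo mice, while Apoa1 and Ttr lay below the filter. All 6 macrophage markers lay above 0, with a summed signal of 135207 to 221842 in NBC and 101316 to 156242 in placebo mice. Of 5 brown adipocyte markers 4 lay below 0 (median -0.35), with a summed signal of 6027 to 10504 in NBC and 7119 to 13396 in placebo mice. Among them Cidea, a lipid droplet protein, averaged 813 ± 92.8 in NBC and 1671 ± 374 in placebo mice (SD, n = 4 each). Its groups did not overlap, and it differed by -0.996 on the log2 scale (SE 0.18), while Ucp1, the uncoupling protein of brown fat, gave -1.39 (SE 0.40). Of the 3 skin markers measured, Krt79 gave 0.45 (SE 0.15), Krt10 0.01 (SE 0.12) and Krt5 -0.33 (SE 0.34), with a summed signal of 3886 to 4388 in NBC and 3154 to 4101 in placebo mice, and Krt14, Krt8, Krt18 and Mc5r were not kept. The 3 nerve markers measured summed to 27815 to 35409 in NBC and 27413 to 36877 in placebo mice. None of these markers passed limma's adjusted threshold. The part of these markers in the values below was not tested.

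Fasn was read by 1 probe set (1423828_at), and its signal was 27893, 29810.0, 40607 and 27803 in NBC mice 5, 9, 11 and 13. In placebo mice 6, 8, 10 and 14 it was 30136, 21668, 44845 and 22262. The spread within each group was wider than the gap between them, with placebo mouse 10 the highest and placebo mouse 8 the lowest of all. The means were 31528 ± 6123 in NBC and 29728 ± 10792 in placebo mice (SD, n = 4 each). The log2 difference was 0.13 with a standard error of 0.24, and the 95% interval ran from 0.746-fold to 1.61-fold, so changes of this size in either direction were not resolved. Without placebo mouse 10 it was 0.35 (SE 0.19), without NBC mouse 11 it was 0.0036 (SE 0.25), and without placebo mouse 8 it was 0.0011.

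Thrsp had the widest difference among the brightest probe sets of the 10 genes. Its probe set 1424737_at read 24340, 26446, 38409 and 27884 in NBC mice 5, 9, 11 and 13, against 36160, 31414, 48237 and 29470 in placebo mice 6, 8, 10 and 14. Of the NBC mice, 3 lay below all placebo mice, and mouse 11 lay above 3 of them. The log2 difference was -0.31 (SE 0.20, 95% interval -0.76 to 0.14). A second Thrsp probe set, 1422973_a_at, averaged 12697 ± 2670 in NBC and 18089 ± 5287 in placebo mice (SD, n = 4 each), again with 3 NBC mice under the lowest placebo mouse. Its log2 difference of -0.49 (SE 0.22) had the smallest unadjusted p of the 18 in limma, 0.0539, with an adjusted p of 0.778. Without NBC mouse 11, limma gave both probe sets an unadjusted p under 0.05, as it did 5.65% of all probe sets. Their log2 differences were then -0.44 (SE 0.19) and -0.61 (SE 0.23), with an adjusted p of 0.857. Without placebo mouse 10 the differences were -0.16 (SE 0.18) and -0.31 (SE 0.19), with unadjusted p of 0.401 and 0.138 in limma. In both probe sets these were the highest mice of their groups. Leaving out mouse 11 therefore had to lower the differences, and leaving out mouse 10 had to raise them. The remaining, dim probe set (1444166_at) read 61.7 to 331 in NBC and 29.1 to 192 in placebo mice and lay below the filter.

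**Figure D1:**
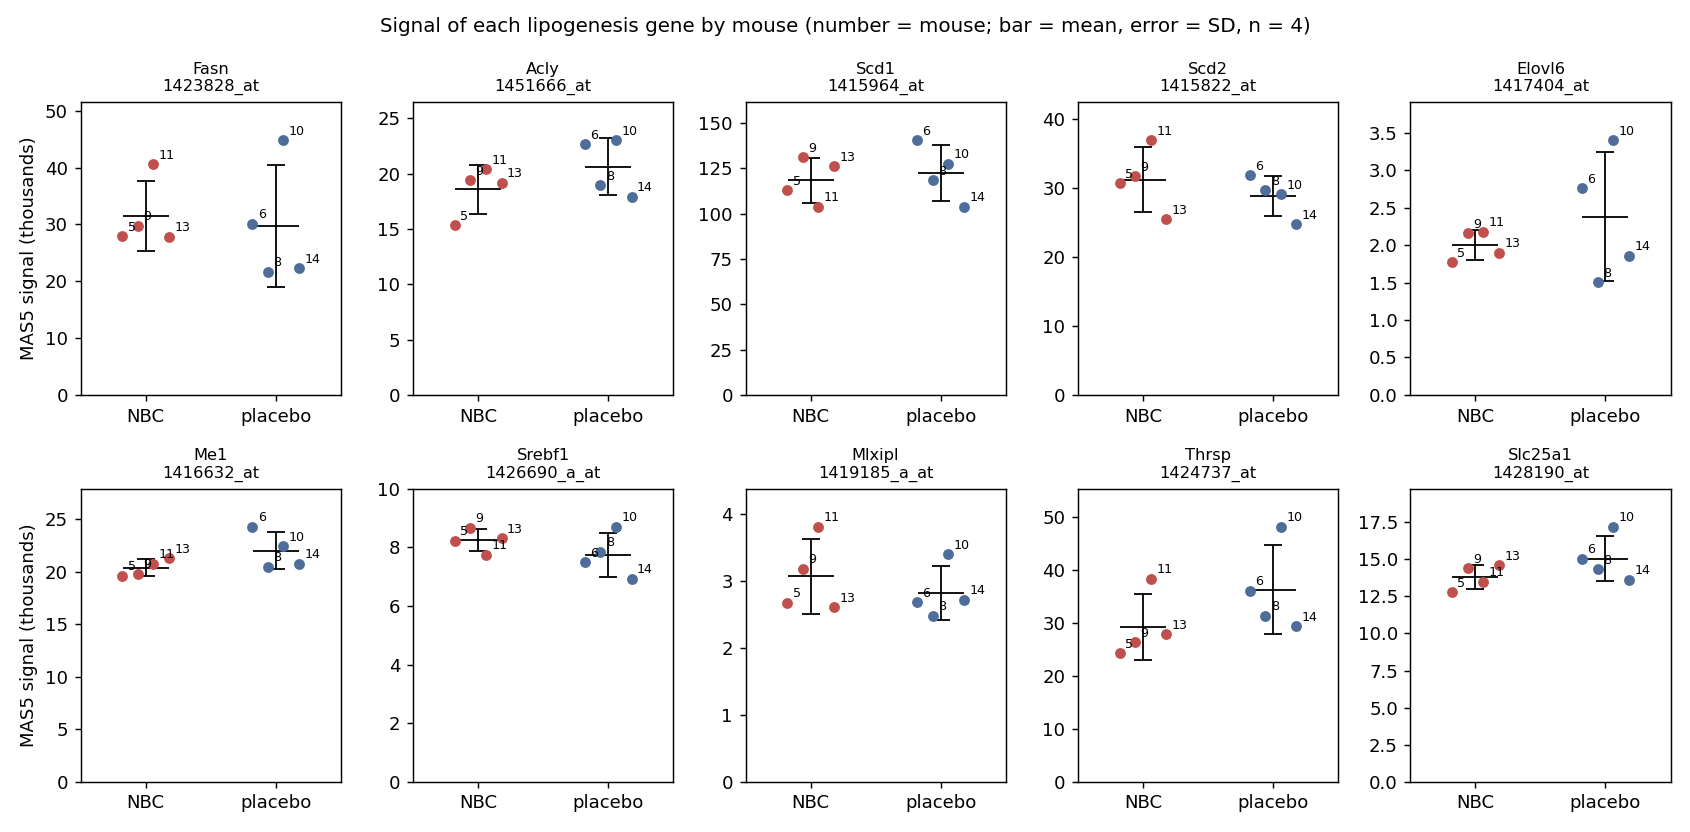
MAS5 signal (vertical axes, linear, starting at 0, with the scale given on the axis) of the brightest probe set of each of the 10 genes, with 1 point per mouse labelled by its number, NBC mice left and placebo mice right; the bar is the mean and the error bar the SD of 4 mice. The groups overlap in every panel, and placebo mouse 10 is the highest point for Fasn, Acly, Elovl6, Srebf1, Thrsp and Slc25a1.

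Of the enzymes that supply the precursors, the citrate carrier Slc25a1 (1428190_at) read 12794, 14384, 13502 and 14591 in NBC mice 5, 9, 11 and 13, against 15042, 14340.0, 17195 and 13636 in placebo mice 6, 8, 10 and 14. The ranges met between 13636 and 14591, and the log2 difference was -0.12 (SE 0.12). Malic enzyme, Me1 (1416632_at), varied least among mice, with a residual SD of 0.09 on the log2 scale, where the median of all probe sets was 0.26. Its signal averaged 20368 ± 795 in NBC and 21985 ± 1744 in placebo mice (SD, n = 4 each). The log2 difference was -0.11 (SE 0.11), and the 95% interval of 0.783-fold to 1.10-fold was among the narrowest of the 10 genes.

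ATP citrate lyase, Acly, had 3 kept probe sets that did not point the same way. The brightest, 1451666_at, read 15371, 19434, 20412 and 19198 in NBC mice 5, 9, 11 and 13, against 22646, 18944, 23045 and 17934 in placebo mice 6, 8, 10 and 14. That gave a log2 difference of -0.15 (SE 0.14), while 1439459_x_at, nearly as bright, gave 0.14 (SE 0.16) and the dimmer 1425326_at gave -0.37 (SE 0.30). The suffix x marks probe sets with probes that may match other transcripts. A further 3 Acly probe sets lay below the filter, with signals of 14.1 to 412 over all mice.

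Elovl6, the elongase of palmitate, read 1772, 2156, 2179 and 1901 in NBC mice 5, 9, 11 and 13 with its probe set 1417404_at, and 2762, 1506, 3404 and 1859 in placebo mice 6, 8, 10 and 14. The NBC mice all lay inside the placebo range, and the SDs were 198 in NBC and 862 in placebo mice. Its log2 difference was -0.18 (SE 0.24), and the other kept probe set, 1417403_at, gave -0.24 (SE 0.22). Without placebo mouse 10 these became 0.01 (SE 0.21) and -0.04 (SE 0.17). The dim Elovl6 probe set lay below the filter, with 40.7 to 281 in NBC and 26.5 to 264 in placebo mice.

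The transcription factor genes gave small log2 differences above 0. Srebf1 (1426690_a_at) read 8231, 8665, 7751 and 8305 in NBC mice 5, 9, 11 and 13, against 7502, 7847, 8702 and 6932 in placebo mice 6, 8, 10 and 14. Every NBC mouse lay inside the placebo range, with a log2 difference of 0.09 (SE 0.11, 95% interval 0.892-fold to 1.27-fold). Mlxipl (1419185_a_at) read 2677, 3189, 3814 and 2614 in the NBC mice and 2688, 2487, 3403 and 2725 in the placebo mice, in the same order. NBC mouse 11 was the highest of all, and the log2 difference was 0.11 (SE 0.16). It was 0.0049 without NBC mouse 11 and 0.21 without placebo mouse 10, while that of Srebf1 was 0.04 without placebo mouse 14 and 0.15 without placebo mouse 10. Both probe sets carry the suffix a, which marks a set that reads several transcripts of 1 gene, so the isoforms of SREBP-1 and ChREBP were not separated here.

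The desaturase genes gave different answers from probe set to probe set. Scd1, the main stearoyl-CoA desaturase of fat, was read by 1415964_at at 112914, 131203, 103772 and 125990 in NBC mice 5, 9, 11 and 13, against 140566, 118459, 127443 and 103727 in placebo mice 6, 8, 10 and 14. The NBC range lay wholly inside the placebo range, and the log2 difference was -0.05 (SE 0.14). The adipocyte marker Fabp4, of like brightness, read 132798, 143878, 118437 and 136467 in NBC mice 5, 9, 11 and 13. In placebo mice 6, 8, 10 and 14 it read 149546, 127969, 144594 and 113707. Both signals were highest in placebo mouse 6 and lowest in placebo mouse 14. Whether signals this bright still follow the amount of transcript in full was not tested, so a difference in Scd1 may be understated here. The second Scd1 probe set, 1415965_at, read 8763, 31305, 10653 and 12988 in the same NBC mice, while the placebo mice ranged over 16714 to 20043. There, 3 NBC mice lay below and mouse 9 above every placebo mouse. The log2 difference was -0.42 (SE 0.35).

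Scd2, an isoform expressed in many tissues and abundant in brain, varied in a like way between its probe sets. Its brightest probe set, 1415822_at, read 30606, 31663, 36881 and 25412 in NBC mice 5, 9, 11 and 13, against 31783, 29607, 29058 and 24742 in placebo mice 6, 8, 10 and 14, with a log2 difference of 0.11 (SE 0.15). The probe set 1415823_at read 1999.9, 8625, 2834 and 4299.7 in the NBC mice, where placebo mice read 4806 to 5697, with a log2 difference of -0.44 (SE 0.38). The dimmest kept one, 1415824_at, read 228, 1867, 272 and 743 in the NBC mice, where placebo mice read 649 to 908, with a log2 difference of -0.46 (SE 0.57). In both, mouse 9 was far above and mice 5 and 11 far below all placebo mice. The second Me1 probe set, 1430307_a_at, repeated this order with 10287, 17549.6, 11288 and 15308 in the NBC mice, where placebo mice read 16337 to 16905. Its log2 difference was -0.32 (SE 0.18).

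**Figure D2:**
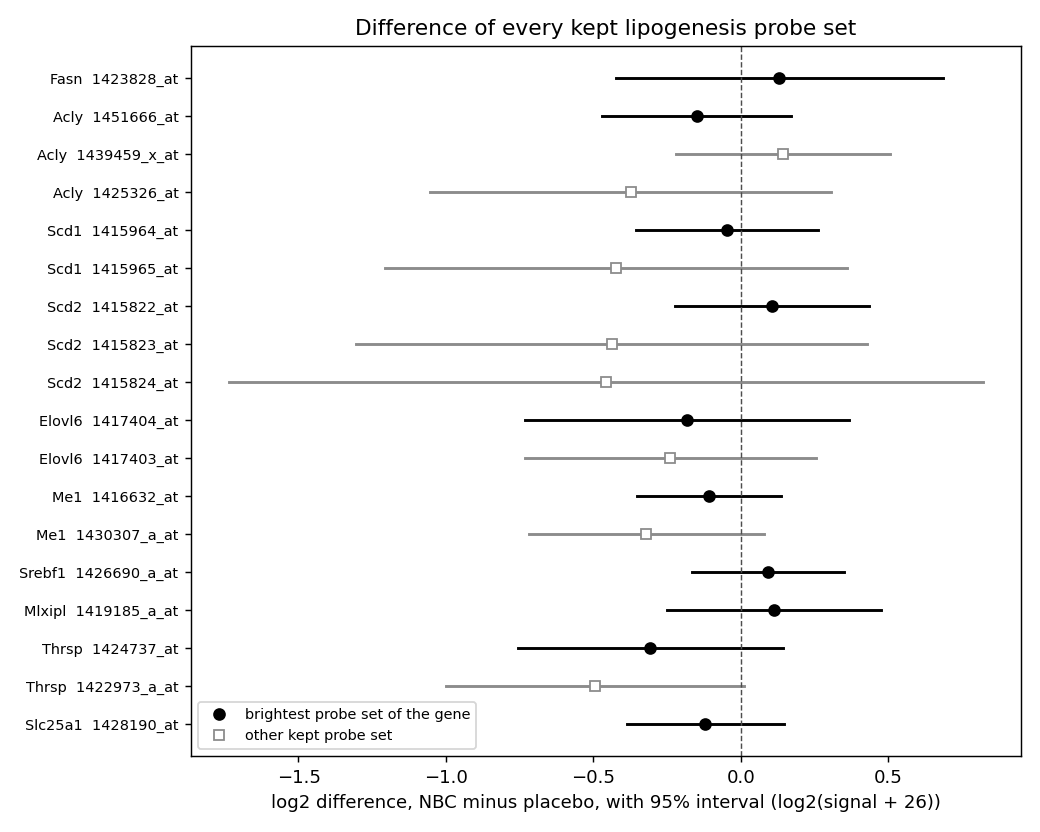
Log2 difference (NBC minus placebo, horizontal axis) with its 95% interval for the 18 kept probe sets, where filled circles are the brightest probe set of a gene and open squares its other probe sets. All 18 intervals include 0, and the widest belong to the dimmer probe sets of Scd2, Scd1 and Acly.

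The order of the NBC mice in these probe sets was that of the Gapdh ratio turned round. For each of the 8 pairs of a dimmer and the brightest kept probe set of 1 gene, the log2 ratio of the pair was set against the log2 Gapdh ratio across the 8 mice, a relation looked at after the values were seen. For Me1, r was -0.972 and rho -0.976 (exact permutation p = 0.00012 and 0.0004, or 0.00099 and 0.0032 after adjustment over the 8 pairs). For Scd1, r was -0.944 and rho -0.952 (exact permutation p = 0.0004 and 0.0011, adjusted 0.0016 and 0.0046). When NBC mice 5 and 11, the farthest from the median Gapdh ratio, were left out, r was -0.923 for Me1 and -0.966 for Scd1.

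For Scd2, r was -0.940 with 1415823_at and -0.904 with 1415824_at, which became -0.709 and -0.606 without those mice. The rho values were -0.690 and -0.762 (adjusted exact permutation p = 0.0793 and 0.0611). The Acly pair with 1425326_at gave r = -0.894, rho = -0.738 (adjusted exact permutation p = 0.0055 and 0.0611), and the pair with 1439459_x_at gave r = 0.908, rho = 0.738 (adjusted exact permutation p = 0.0050 and 0.0611), the only positive one. Without mice 5 and 11 these r values were -0.591 and 0.552. Thrsp gave r = -0.813, rho = -0.762 (adjusted exact permutation p = 0.0165 and 0.0611), but r was -0.282 without those mice, so that relation rests on them. Elovl6 gave r = -0.281, rho = -0.500 (adjusted exact permutation p = 0.499 and 0.216), and r = -0.331 without them. Those p-values permute all 8 mice, although 3 of the 4 NBC mice have the highest Gapdh ratios. With group means removed and mice permuted within groups (576 arrangements), r was -0.970 for Me1 and -0.943 for Scd1 (adjusted exact permutation p = 0.0139 and 0.0417), with rho of -0.929 and -0.881 (0.0278 and 0.0556). Of the 8 pairs, 4 passed in r (Me1, Scd1, Scd2 with 1415823_at and Acly with 1425326_at) and 1 in rho (Me1). With the actin ratio in place of that of Gapdh, r within groups was -0.802 for Me1 and -0.616 for Scd1, and 0 of the 8 pairs passed (smallest adjusted exact permutation p = 0.256 for r and 0.236 for rho). Between the groups, 0 of the 8 pair ratios differed in a two-sided exact permutation test (smallest adjusted p = 0.457), where 4 mice against 4 cannot give an unadjusted p below 0.0286.

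**Figure D3:**
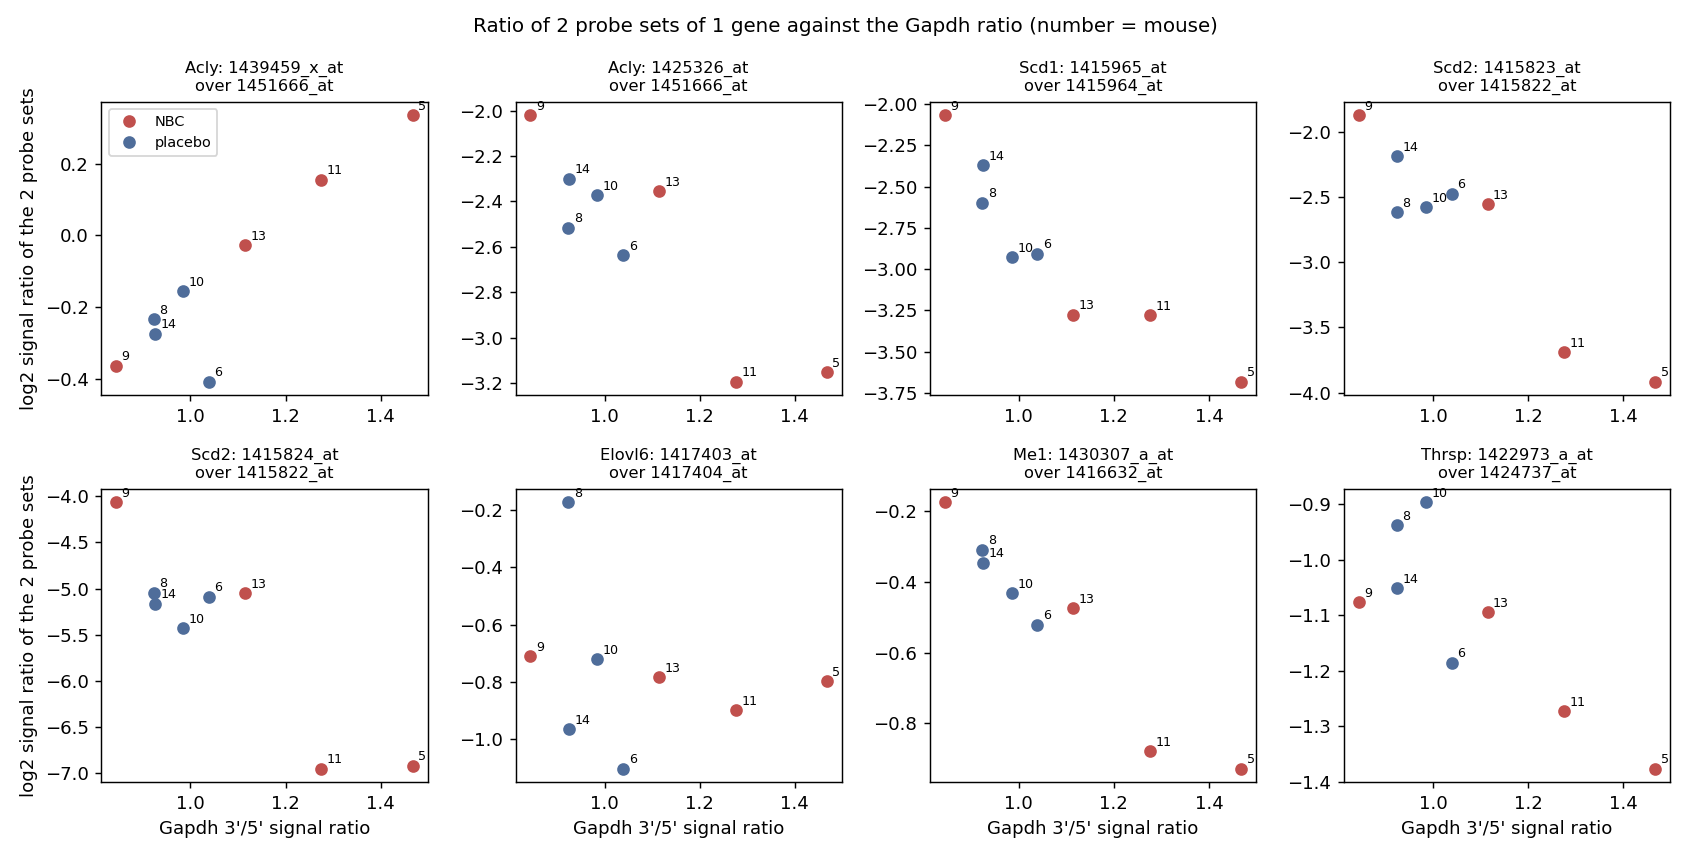
Log2 ratio of 2 probe sets of the same gene (vertical axes) against the Gapdh 3′ to 5′ signal ratio (horizontal axes, linear scale), 1 panel per pair and 1 point per mouse labelled by its number. In the Scd1 and Me1 panels the points run down from NBC mouse 9 at a Gapdh ratio of 0.844 to NBC mouse 5 at 1.47.

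The differences of these probe sets moved with the mice included. Without NBC mouse 9, 5 of the 18 member probe sets had an unadjusted p under 0.05 in limma, all lower in NBC mice, while 7.28% of all probe sets had one in that direction. They were 1415965_at of Scd1 (log2 difference -0.81, SE 0.16), 1415823_at and 1415824_at of Scd2 (-0.83 and -1.03), 1425326_at of Acly (-0.62) and 1430307_a_at of Me1 (-0.45), and the smallest adjusted p was 0.211. With the Gapdh ratio as a covariate the same 5 gave 0.14 (SE 0.16), 0.18, 0.45, 0.07 and -0.08. Without NBC mice 5 and 11 they gave 0.11 (SE 0.33), 0.23, 0.61, 0.18 and -0.02. In all 5, mouse 9 was the highest and mice 5 and 11 were the lowest of the NBC mice. Leaving out mouse 9 therefore had to lower these differences, and leaving out mice 5 and 11 had to raise them. The covariate and the leaving out of mice 5 and 11 were chosen after the values were seen, and the cause was not tested. The count of the 18 below 0 was 13 over all mice, 9 with the covariate and 10 without mice 5 and 11. The 9 below 0 with the covariate also lay below 0 without mice 5 and 11. They were the 2 kept probe sets each of Thrsp, Elovl6 and Me1, that of Slc25a1 and the 2 brighter ones of Acly. Those of Thrsp gave -0.36 (SE 0.24) and -0.44 (SE 0.27) with the covariate. Without mice 5 and 11 they gave -0.39 (SE 0.22) and -0.46 (SE 0.25).

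Across mice, placebo mouse 10 had the highest signal for 6 of the 10 genes, placebo mouse 6 for 2 (Scd1 and Me1) and NBC mouse 11 for 2 (Scd2 and Mlxipl). NBC mouse 5 was lowest for 4 genes, and placebo mice 8 and 14 for 3 each. The median deviation of the 10 genes from their means was 0.23 in placebo mouse 10 and -0.16 in placebo mouse 14 on the log2 scale, and the 4 NBC mice lay between them, from -0.12 to 0.05. The highest and the lowest of these medians were both in the placebo group.

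**Figure D4:**
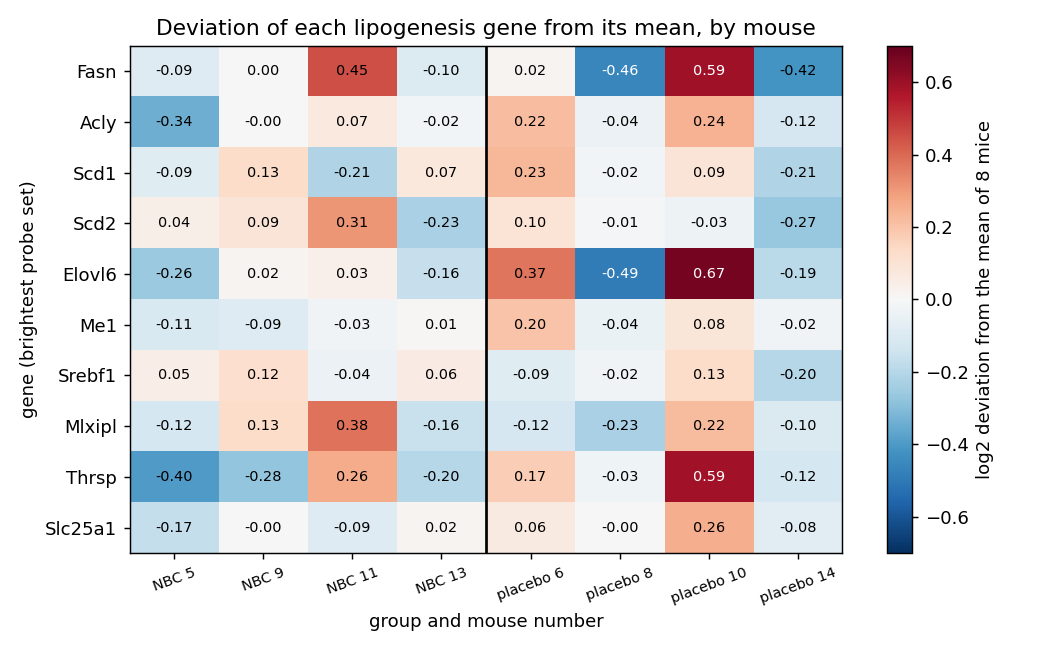
Log2 deviation of each gene (rows, brightest probe set) from its mean over the 8 mice, by mouse (columns, NBC mice left of the line and placebo mice right of it), with the value printed in each cell. Placebo mouse 10 is above the mean for 9 of the 10 genes, and placebo mice 8 and 14 for 0.

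After the group means were subtracted, the log2 level of Thrsp followed that of Fasn across the 8 mice with r = 0.943 and rho = 0.833. An exact permutation of mice within groups (576 arrangements) gave p = 0.0139 and 0.0590, or 0.0521 and 0.160 adjusted over the 9 genes set against Fasn. Elovl6 gave r = 0.894 and rho = 0.952 (exact permutation p adjusted to 0.0521 and 0.125), and Mlxipl r = 0.841 and rho = 0.667 (0.0521 and 0.160). Without placebo mouse 10 and NBC mouse 11, the mice farthest from the median Fasn level, r was 0.747 for Thrsp, 0.958 for Elovl6 and 0.329 for Mlxipl, so the relation of Mlxipl with Fasn rests on these mice. For Acly r was 0.747 (rho 0.810, adjusted exact permutation p = 0.117 and 0.160), for Slc25a1 0.688 (rho 0.571, 0.232 and 0.352), for Me1 0.528 (rho 0.643, 0.429 and 0.352) and for Scd2 0.507 (rho 0.429, 0.232 and 0.357). Srebf1 gave 0.458 (rho 0.190, 0.465 and 0.694) and Scd1 0.180 (rho 0.262, 0.750 and 0.694). Without those mice Acly gave 0.691, Slc25a1 0.568, Me1 0.811, Scd2 0.456, Srebf1 0.290 and Scd1 0.833. None of the 9 passed after adjustment.

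For comparison, r with Fasn had a 5th percentile of -0.705 and a 95th percentile of 0.712 over the 11661 other genes. The 5 genes outside the pathway genes with the highest r over these 8 mice were Sort1 (0.980), Wnt7a (0.975), Ppp2r5a (0.975), Ina (0.972) and Slc35d2 (0.970), with rho between 0.905 and 0.929. Sort1 encodes the sorting receptor sortilin and Ppp2r5a a regulatory subunit of protein phosphatase 2A. Their points share the high values of placebo mouse 10 and NBC mouse 11: Sort1 read 14464 in NBC mouse 11 and 16147 in placebo mouse 10, against 13567 to 13796 in the other NBC mice and 14388 to 15390 in the other placebo mice.

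Of the 9 genes set against Fasn, Thrsp had the highest r, and the promoters of both are shown as RefSeq holds them for GRCm38.p6, from 250 bases before the gene start to 50 after it, on the minus strand of chr11:120824498-120824797 for Fasn and chr7:97417501-97417800 for Thrsp. Capitals mark CCAAT or its reverse complement, ATTGG, the box bound by the factor NF-Y, which is known to act beside SREBP-1 at lipogenic promoters.
Fasn: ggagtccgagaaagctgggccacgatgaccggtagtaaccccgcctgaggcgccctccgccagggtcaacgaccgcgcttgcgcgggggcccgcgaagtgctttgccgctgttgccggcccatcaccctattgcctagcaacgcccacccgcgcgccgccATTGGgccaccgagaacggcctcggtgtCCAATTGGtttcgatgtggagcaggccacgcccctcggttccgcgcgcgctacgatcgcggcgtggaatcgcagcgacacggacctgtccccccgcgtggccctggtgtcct
Thrsp: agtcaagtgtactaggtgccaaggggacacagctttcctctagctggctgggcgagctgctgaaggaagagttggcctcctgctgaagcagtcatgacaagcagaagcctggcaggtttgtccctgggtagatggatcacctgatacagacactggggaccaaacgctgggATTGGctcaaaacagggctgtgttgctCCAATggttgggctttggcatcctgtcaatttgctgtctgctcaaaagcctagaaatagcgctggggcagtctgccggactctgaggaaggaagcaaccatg

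The Fasn window held 3 such boxes, beginning at -90, -62 and -59 relative to the gene start, and the last 2 overlap. The Thrsp window held 2, beginning at -79 and -52. The table has 12 windows for 8 of the 10 genes, and Scd1 and Scd2 are named only. The box lay in 8 of the 12 windows (7 of the 8 genes, Elovl6 being without it), and in 37.4% of the 32851 windows of all genes. Elovl6 was also the gene with the highest rho with Fasn, 0.952. At least 2 boxes were in 11.7% of all windows. The E-box CACGTG, a letter sequence that ChREBP and other factors can bind, lay in 2 of the 12 windows, those of Mlxipl and Slc25a1, and in 7.15% of all. CACCCCAC, the core of the sterol response element that SREBP binds, was found in 0 of the 12 and in 2.87% of all. The LXR response element, AGGTCA repeated with 4 free bases between, was found in 0 of the 12 and 0.0152% of all. Both strands were searched, and a match is a match of letters only.

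The rest of the pathway was covered by 5 lists with 48 genes, of which 44 had a probe set named for them alone and 41 passed the filter. None of the 41 passed limma's adjusted threshold (smallest adjusted p = 0.653), 21 had log2 differences above 0 and 20 below, and the median was 0.01. In the list of carboxylation and activation, 5 of 8 measured genes lay above 0 (median 0.08). Hlcs, the ligase that puts biotin on the carboxylases, averaged 764 ± 240 in NBC and 1424 ± 94.4 in placebo mice (SD, n = 4 each), without overlap, a log2 difference of -0.93 (SE 0.21, adjusted p = 0.653). Acacb, the acetyl-CoA carboxylase that sits at mitochondria, gave -0.38 (SE 0.19), and the mitochondrial malonyl transferase Mcat gave 0.24 (SE 0.18). The other acetyl-CoA carboxylase, Acaca, gave 0.06 (SE 0.24), and Acsl1 had no probe set named for it alone.

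In the list of NADPH supply and the pentose phosphate pathway, 5 of 6 measured genes lay above 0 (median 0.08). Among them were Rpia (0.16, SE 0.16) and Pgd (0.09, SE 0.11) of the pentose phosphate pathway. The mitochondrial malic enzyme Me2 gave -0.30 (SE 0.13). G6pdx and Me3 were not measured: of the 8 genes listed, 7 had a probe set named for them alone and 6 passed the filter. The list of chain elongation and desaturation had 4 of 9 above 0 (median -0.0028). In it Elovl1, which makes very long chains, gave 0.23 (SE 0.13), and the enoyl reductase Tecr gave -0.15 (SE 0.12). Among SREBP processing genes and other lipogenic regulators, 4 of 12 lay above 0 (median -0.08). Insig1, which retains the SREBP complex in the endoplasmic reticulum, read 17670, 9377, 16297 and 11682 in NBC mice 5, 9, 11 and 13, where placebo mice read 8183 to 10672. Mice 5 and 11 were highest, mouse 9 lay among the placebo mice, and the log2 difference was 0.44 (SE 0.21). Its relative Insig2 gave -0.26 (SE 0.13).

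Downstream of fatty acid synthesis, 3 of 6 genes of triglyceride assembly lay above 0 (median -0.01). Agpat2, the acyltransferase that makes phosphatidic acid in fat, read 27182, 30026, 28809 and 28501 in NBC mice 5, 9, 11 and 13, against 32481, 32219.7, 38297 and 31737 in placebo mice 6, 8, 10 and 14. Every NBC mouse was below every placebo mouse, the log2 difference was -0.23 (SE 0.11), and limma's adjusted p was 0.778. Gpam, the first acyltransferase of the same pathway, gave 0.26 (SE 0.20).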

How the data were processed

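Total RNA of subcutaneous fat was biotin-labelled and read on 1 array per mouse, 8 in all. The deposited values are MAS5 signal intensities on a linear scale (the algorithm is named in the submitters' processing notes). Without the outer 2% on both sides, each array averaged 1500.01, and no further scaling was applied. The number of arrays limits the precision.

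Groups and mouse numbers came from the sample titles. The labels give no batch, and the groups have no mouse number in common. Arrays correlated at 0.941 to 0.975 (Spearman) within groups and at 0.945 to 0.968 between them, and no pair shared more than 0.0776% identical signals.

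The signals were turned to log2 after adding 26, near their 10th percentile, so that changes of dim transcripts are understated. The 64 control probe sets were left out, and probe sets whose mean log2 value reached the median were kept (22519, for 11662 genes). The brightest kept probe set stood for a gene. NBC and placebo mice were compared with limma 3.58.1 (lmFit, eBayes, no covariate) in R 4.3.3, adjusted by Benjamini-Hochberg over all kept probe sets at 0.05. Standard errors and 95% intervals are the moderated ones. The fit was tested on simulated data with normal noise at the residual SD of each probe set. Of 100 probe sets changed 2-fold, 61% passed the adjusted threshold, and of 100 changed 4-fold, 84% did. There were 8 false calls, and 0 probe sets passed when none was changed. A 2-fold change can thus be missed by this fit.

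Genes were named through the platform annotation, with symbols checked against RefSeq (0 changed). The members, lists and alternatives were chosen with earlier results of these data known. The text names all 10 genes with every probe set, at most 3 genes of smallest p in each pathway list, and the 5 genes most like Fasn. Acaca is named in addition.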

Additional observations from a re-analysis of the deposited data

Results flagged for a closer look

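In 2 of the 46 sets of 4 values (23 probe sets in 2 groups) 1 mouse lay far from the other 3 of its group by Dixon's criterion, which marks about 5% of such sets by chance. Fasn (1423828_at) read 40607 in NBC mouse 11, against 27803 to 29810.0 in the other NBC mice. The dim Thrsp probe set 1444166_at, below the filter, read 192.0 in placebo mouse 10, against 29.1 to 48.7 in the other placebo mice.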

How the results depend on the processing

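Over 19 alternatives, 183 of the 190 log2 differences of the 10 genes kept their sign, and 0 passed the adjusted threshold. Scd1 (-0.05 as reported) turned to 0.016 without NBC mouse 11, 0.023 without placebo mouse 6, 0.010 with the Gapdh ratio as a covariate and 0.078 without NBC mice 5 and 11. Scd2 turned to -0.263 with the mean of its probe sets and -0.016 without NBC mice 5 and 11, and Elovl6 (-0.18 as reported) to 0.012 without placebo mouse 10. With 1 mouse left out, Scd1 ranged from -0.123 to 0.023 and Elovl6 from -0.376 to 0.012. The Gapdh covariate and leaving out NBC mice 5 and 11 were chosen after seeing the data. The cause was not tested.

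The count of probe sets past the adjusted threshold over the array ranged from 0 to 19 with 1 mouse left out (19 without NBC mouse 9). The count of member probe sets with an unadjusted p under 0.05 in limma was 0 as reported, where 6.22% of all probe sets had one. It was 1 with a pseudocount of 100 (6.35% of all probe sets) and 1 of 16 with the stricter filter (7.85%). It was also 1 with median centring (5.69%), with the intensity trend (6.52%) and with array weights (9.44%). With 1 mouse left out it ranged from 0 to 5. It was 5 without NBC mouse 9 (11.35% of all probe sets), 2 without NBC mouse 11 (5.65%) and 1 without placebo mouse 14 (5.20%). The count of genes below 0 ranged from 5 to 7. With probe sets averaged per gene no count of probe sets could be given. No paired analysis was possible because the groups share no mouse numbers.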
